A study of Saccharomyces cerevisiae with 24 samples.

Results

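The sites described here are the adenines and cytosines of the 5′ domain of 18S ribosomal RNA in the budding yeast Saccharomyces cerevisiae. They were taken by position as every A and C at nucleotides 701 to 1320 of RDN37, the precursor transcript of 18S, 5.8S and 25S rRNA, which is n1 to n620 of 18S. There were 300 such sites, 184 A and 116 C, out of 831 A and C in the 1800 nt of 18S and 3131 in the 6858 nt of RDN37. Numbering starts with 1 at the 5′ end of 18S, and A515 stands for the adenine at n515. The rDNA repeats lie on chromosome XII, and no genome coordinates are printed because the sources used here name no genome build.

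Dimethyl sulfate (DMS) methylates the base-pairing face of A and C where it is not held in a pair or covered, and reverse transcription under mutagenic conditions records the methylated base as a mutation. A mutation rate above that of an untreated sample therefore reports a base that DMS could reach. The 5′ domain of 18S forms the body of the small ribosomal subunit. In early precursors its 5′ end pairs with the U3 small nucleolar RNA (snoRNA), and the snoRNA U14 pairs through its domains A and B with stretches of the domain, where it is needed for processing and guides the methylation of C414. Helix 18, near the end of the domain, carries the 530 loop of the decoding site.

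The study probed particles in 2 experiments, with 24 libraries in 8 groups of 3 replicates that its design calls biological. Pre-40S particles, precursors of the small subunit, were purified through TAP-tagged Utp9, a protein of the UTP-A complex that binds early precursors, from yeast expressing wild-type Rrp5 (WT) or, in its place, Rrp5_mL (mL). Rrp5 is an RNA-binding assembly factor, and both of these groups also carried H375A. Mature ribosomes came from the laboratory strain BY4741 and from BY4741 Δsnr31Δsnr54, here called the deletion strain. It lacks 2 snoRNAs that guide modifications in the central domain of 18S, outside n1 to n620. Each of these 4 kinds of particle was probed with DMS and, as control, without it. Cells were in mid-log phase in YPD, and the particles received 1% DMS for 5 min at 30 °C. The sources used here state neither the meaning of mL nor the protein that H375A belongs to. The labels call the mature sample 40S in one place and ribosomes in another.

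All 300 sites met the depth minimum in the 6 treated pre-40S libraries (50 reads) and in the 12 mature libraries (1000 reads), and 297 met it in all 12 pre-40S libraries. The median depth over the sites was 229 to 527 reads in treated pre-40S libraries, 80.5 to 882 in untreated ones, 19586.5 to 34137.5 in treated mature libraries and 25841.5 to 61673 in untreated ones. Rates in the pre-40S particles are therefore much less precise. The 5′ external transcribed spacer is a part of early precursors that mature ribosomes lack. Its depth relative to 18S had group means of 0.67 to 2.35 in pre-40S and 0.0004 to 0.0008 in mature particles. Untreated WT replicate 2 stood apart at 0.0357, against 0.856 in replicate 1 and 1.12 in replicate 3 of that group. The deepest of the 300 sites in that library had 399112 reads against a median of 882, and these reads count in its 18S depth. Its 25S depth relative to 18S was low too, at 0.0391 against 0.399 and 0.506. Whether that library held less precursor was not tested, and the group mean of 0.67 includes it. The 25S part of RDN37 was read in the pre-40S libraries as well. Its depth relative to 18S had group means of 0.315 to 0.768 there and 2.19 to 2.33 in mature particles. Which RNAs these 25S reads came from was not tested. Each rate is an average over all particles of a preparation, so a base reached in few particles and a base reached weakly in all of them cannot be told apart.

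Stretches in which sites changed between the particles are printed first, 5′ to 3′ in RNA letters. Capitals in the line marked higher are A and C called higher in pre-40S than in mature particles in both of the comparisons described further on, which share no library, and capitals in the line marked lower are those called lower in both. The first stretch is the 5′ end of 18S, whose start pairs with U3, and it held 2 higher sites and no lower one. The second holds the U14 domain A region.
n1 to n30, higher: uaucugguugAuccugCcaguagucauaug
n60 to n100, higher: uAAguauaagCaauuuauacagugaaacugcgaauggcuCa
n60 to n100, lower: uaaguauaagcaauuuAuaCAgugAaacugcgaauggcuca

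The next stretches surround C139, the most DMS-reactive site of the mature domain, and A215, A220 and A266.
n126 to n165, higher: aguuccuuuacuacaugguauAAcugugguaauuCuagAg
n126 to n165, lower: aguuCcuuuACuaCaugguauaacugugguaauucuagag
n211 to n270, higher: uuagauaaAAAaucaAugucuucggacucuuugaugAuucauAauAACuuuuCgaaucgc
n211 to n270, lower: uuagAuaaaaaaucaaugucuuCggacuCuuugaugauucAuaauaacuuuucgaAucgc

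Then come A352 with its neighbours, the U14 domain B region around C414, the stretch with A515 and A534, and helix 18.
n345 to n360, higher: ugguuucaACggguaa
n345 to n360, lower: ugguuucAacggguAa
n395 to n430, higher: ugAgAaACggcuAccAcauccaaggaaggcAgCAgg
n395 to n430, lower: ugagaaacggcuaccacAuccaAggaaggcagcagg
n505 to n545, higher: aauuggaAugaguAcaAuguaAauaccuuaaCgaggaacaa
n505 to n545, lower: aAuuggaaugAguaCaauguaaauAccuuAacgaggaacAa
n550 to n590, higher: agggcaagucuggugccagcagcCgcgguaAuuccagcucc
n550 to n590, lower: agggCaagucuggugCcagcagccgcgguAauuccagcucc

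At a few sites some libraries stood apart, and these come before the results. A119 was mutated without DMS in most pre-40S reads, at 88.1%, 99.6% and 81.0% in the 3 WT libraries and 77.3%, 67.1% and 59.9% in the 3 mL libraries. Of the untreated mature libraries, BY4741 replicate 2 had 78.5% and the other 5 had 2.13% to 3.96%. With DMS the site lay at 0% to 6.43% in 11 libraries and at 57.7% in deletion replicate 3.

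C131 followed the same libraries without DMS, with 31.1%, 58.6% and 26.5% in WT, 22.3%, 19.4% and 10.9% in mL and 0.221%, 17.0% and 0.310% in BY4741. With DMS it had 14.7% in deletion replicate 3, against 2.03% and 3.60% in replicates 1 and 2. C114 was high in WT untreated replicate 2 (49.5%, against 0% and 0.275%) and in BY4741 untreated replicate 2 (5.24%). A119 was also covered by more reads than the median site in each library where its rate was high. Its depth was 6.29, 205 and 3.59 times that median in the 3 untreated WT libraries, 3.83, 2.97 and 2.00 times in mL, 3.24 times in BY4741 untreated replicate 2 and 1.75 times in deletion treated replicate 3, against 0.651 to 1.24 times in the other 16. The part of these libraries in the results was not tested, so several results that rest on them are also given without them. A119 is left out of the means over sites below, while C131 and C114 remain in them.

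**Figure D1:**
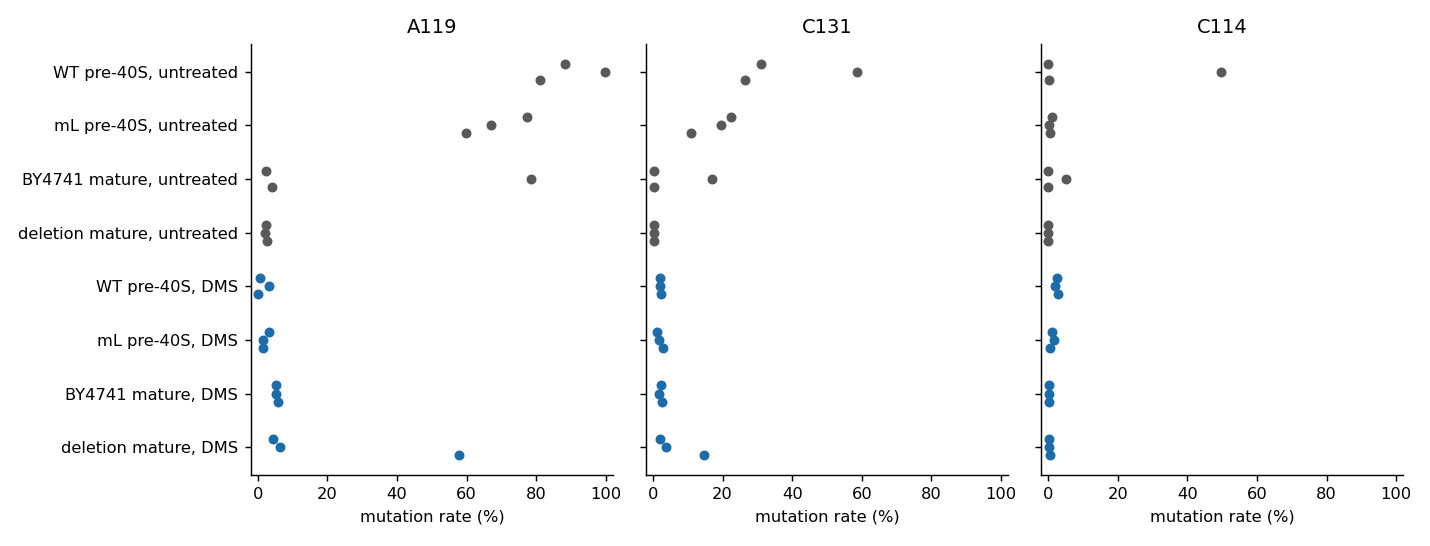
Mutation rate (percent) at A119, C131 and C114 in each library, untreated (grey) and with DMS (blue), each point 1 library of the 8 groups. At A119 all 6 untreated pre-40S libraries and BY4741 untreated replicate 2 lie above 59%, and of the treated libraries deletion replicate 3 alone lies at 57.7%.

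With DMS the mutation rates were spread more evenly over the domain in the pre-40S particles and were more concentrated in few sites in the mature ribosomes. The mean rate over A was 2.17% ± 0.261 (SD, n = 3) with WT Rrp5 and 2.39% ± 0.0525 with mL, against 1.12% ± 0.136 in BY4741 and 1.38% ± 0.168 in the deletion strain. The mean over C was 1.31% ± 0.0674, 1.28% ± 0.0684, 0.802% ± 0.082 and 0.964% ± 0.0987 in the same order. Untreated libraries gave 0.222% ± 0.129, 0.267% ± 0.0456, 0.0537% ± 0.0232 and 0.0431% ± 0.0048 for A. For C they gave 0.696% ± 0.508, 0.424% ± 0.051, 0.165% ± 0.127 and 0.097% ± 0.0074. Without replicate 2 the untreated means were 0.148% for A and 0.403% for C in WT, and 0.0406% and 0.0916% in BY4741.

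By their group means, 200 sites reached 1% in treated WT particles and 194 in mL, but 55 in BY4741 and 74 in the deletion strain. Sites under 0.5% numbered 52, 48, 196 and 154. The 10 most mutated sites of a library held 15.6% ± 1.08 of the summed rate in WT, 13.6% ± 0.332 in mL, 39.2% ± 1.02 in BY4741 and 35.8% ± 0.543 in the deletion strain (SD, n = 3). Across the 300 sites the rank correlation (Spearman's rho) of the treated group means was 0.885 between WT and mL, 0.972 between BY4741 and the deletion strain, 0.627 between WT and BY4741 and 0.675 between mL and the deletion strain. Sites within a group share libraries and depth, so these values are descriptions.

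**Figure D2:**
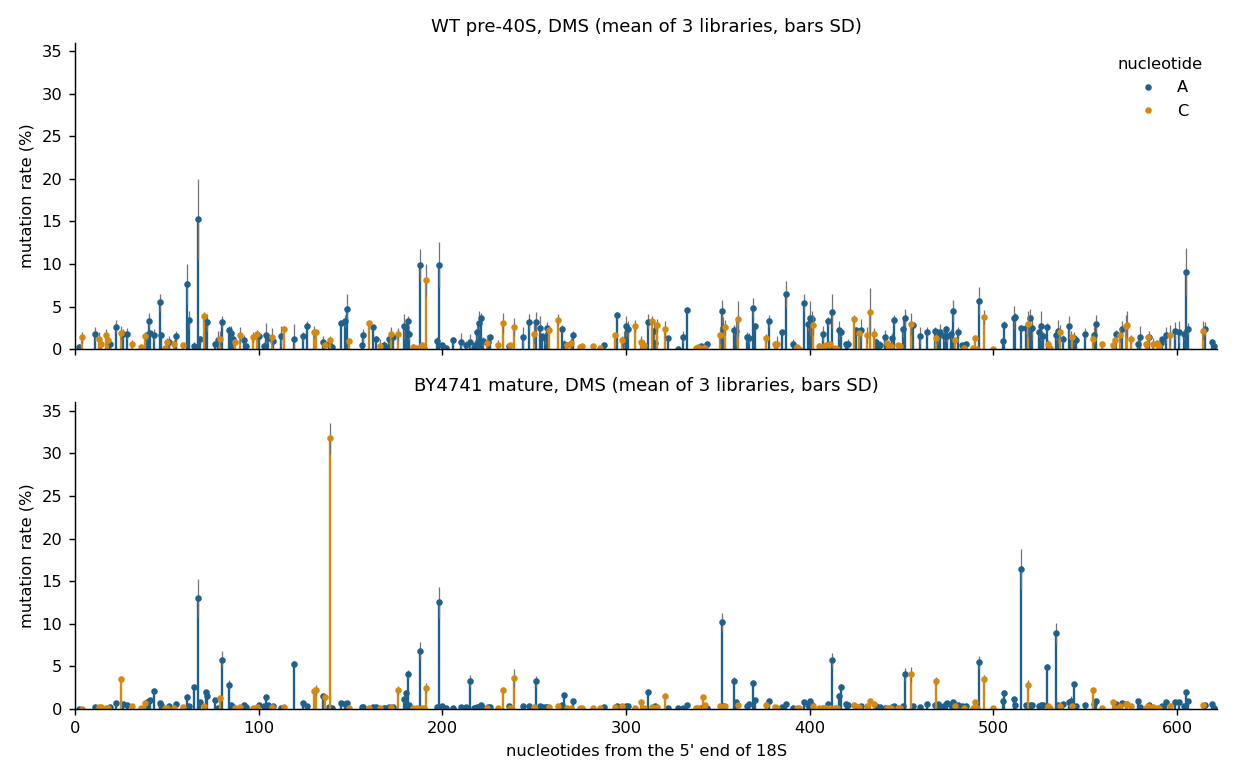
Mutation rate with DMS (percent) at each A (blue) and C (orange) of n1 to n620 against the position in 18S (nt), in WT pre-40S above and BY4741 mature ribosomes below. Points are means of 3 libraries and bars are SD; C139 reaches 31.8% in BY4741 and ranks 190 of the 300 sites in WT, and 200 sites reach 1% in WT and 55 in BY4741.

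The highest sites differed between the particles. In treated BY4741 they were C139 (31.8%), A515 (16.4%), A67 (13.0%), A198 (12.5%), A352 (10.2%), A534 (8.92%), A188 (6.78%), A80 (5.77%), A412 (5.76%) and A492 (5.45%). In treated WT pre-40S they were A67 (15.3%), A198 (9.92%), A188 (9.87%), A605 (9.02%), C191 (8.15%), A61 (7.66%), A387 (6.43%), A492 (5.69%), A46 (5.49%) and A397 (5.45%). The top 10 shared 9 sites between WT and mL, 9 between the mature strains and 4 between WT and BY4741. C139 ranked 1 in both mature groups but 190 in WT and 199 in mL. A67 and A605 were high in the pre-40S particles without DMS as well. A67 had 3.03%, 8.14% and 9.87% in untreated WT and 13.1%, 18.4% and 14.2% in untreated mL, and A605 had 4.0%, 14.7% and 6.52% and 9.31%, 10.6% and 7.10%.

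The first test asked which sites DMS mutated above the untreated background of the same particle. In edgeR's quasi-likelihood test with Benjamini-Hochberg adjustment over all tested RDN37 sites, sites with an adjusted p below 0.05 were called. Among the mature ribosomes 249 of 298 tested sites rose with DMS in BY4741 and 268 of 298 in the deletion strain, where the shares of all tested A and C of RDN37 were 77.9% and 80.9%. In the pre-40S particles 97 of 115 tested sites rose with WT (87.9% of all tested A and C) and 97 of 106 with mL (90.6%). Only sites with at least 30 mutations over the 6 libraries were tested, which few reached in the shallow pre-40S libraries. Treated libraries count toward that minimum, so sites that rise pass it more readily, and these shares are partly set by it. In either direction 101 of 115 sites were called with WT and 99 of 106 with mL. With no mutation minimum the calls were 212 of 296 and 212 of 299. Without 1 of the 6 libraries the WT calls in either direction numbered 57 to 101 and the mL calls 30 to 94. They were lowest without treated replicate 2 of either group, where 75 and 36 sites were tested.

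The calls are given for each base beside those of the whole transcript. In BY4741 178 of 183 A and 71 of 115 C rose, where 97.8% of all tested A and 50.9% of all tested C of RDN37 rose. In the deletion strain 180 of 183 A and 88 of 115 C rose, where the shares over RDN37 were 99.2% and 55.8%. In the pre-40S particles the rises comprised 71 of 79 tested A and 26 of 36 tested C for WT, and for mL 73 of 76 and 24 of 30. The shares over RDN37 were 90.9% of A and 78.9% of C for WT, and 91.6% and 87.2% for mL. Among the C, those followed by G had medians over 21 sites of 2.01% in WT, 1.57% in mL, 0.328% in BY4741 and 0.491% in the deletion strain. Those followed by another C were less mutated, with medians over 25 sites of 0.441%, 0.318%, 0.126% and 0.15%. Those followed by U were also low, with medians over 32 sites of 0.556%, 0.642%, 0.135% and 0.152%. Those followed by A lay between, with medians over 38 sites of 1.35%, 1.25%, 0.253% and 0.345%.

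Few sites fell with DMS. With WT they were A65, C114, A119 and C131, with log2 changes of -3.57, -3.00, -5.98 and -4.26, in a comparison where 1.08% of all tested A and C fell. Without untreated WT replicate 2 A119 and C131 still fell (-5.83 and -3.78), and A65 and C114 had too few mutations for the test. With no mutation minimum and without that library, C114 rose (3.12, adjusted p = 0.013) and A65 was not called (-1.70, adjusted p = 0.275). With mL they were A119 (-5.13) and C131 (-3.16), against 1.37% overall. In BY4741 only C114 fell (-3.26, adjusted p = 0.0485, against 0.243% overall), and without untreated replicate 2 it rose (1.13, adjusted p = 0.00346). It was not called without treated replicate 1, 2 or 3 either (-3.13, -3.19 and -3.50). These are the sites at which untreated libraries stood apart, together with A65, whose untreated WT rates were 0.952%, 5.48% and 0.914%. In the deletion strain C484, C489 and C500 fell by 1.02, 0.89 and 1.08 on the log2 scale, where the share over RDN37 was 1.83%, and still fell without treated replicate 3 (-1.13, -0.78 and -0.94).

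The pre-40S particles were then compared with the mature ribosomes, WT with BY4741 and mL with the deletion strain. Particle and experiment cannot be told apart in either of them, since no pre-40S library was made with the mature ones. The typical deposited rate was higher in pre-40S: the library factors, medians over 1505 and 1490 RDN37 sites, differed by 1.369 log2 (2.58-fold) and 1.143 log2 (2.21-fold). Most of the A and C tested lay outside 18S. Of 1982 in the first comparison 265 were sites of this domain and 428 lay in the rest of 18S, and of 1873 in the second 260 and 410. Changes below are after division by these library factors, so that higher and lower mean relative to the typical tested A or C of RDN37.

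On that scale 80 of 265 tested sites were higher in WT pre-40S than in BY4741 and 45 were lower, where 12.8% of all tested A and C were higher and 17.1% were lower. The second comparison gave 84 of 260 higher and 44 lower, against 14.7% and 20% overall. In the rest of 18S 23.6% were higher and 13.3% lower in the first comparison, and 24.9% and 17.8% in the second. The median log2 change of the sites was 0.63 and 0.60, and that of all tested A and C was 0.033 and 0.002. Without mL treated replicate 2 the higher sites of the second comparison numbered 54, and without deletion treated replicate 3 they numbered 80, with 46 lower.

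The split depends on the scaling. Higher calls made up 64.0% and 65.6% of all calls with the factor over RDN37. With no factor they made up 93.4% (170 higher, 12 lower) and 90.3% (176 and 19), and with the factor taken over 18S alone 50.0% (55 and 55) and 54.2% (65 and 55). A factor over all tested sites with a pseudocount gave 61.2% (74 and 47) and 60.5% (72 and 47). All 80 and 84 sites called higher were also higher in the deposited rates. This was fixed in advance, since the factor lowers pre-40S rates relative to mature ones. Of the sites called lower, 30 of 45 and 34 of 44 had a lower deposited mean in pre-40S, and the other 15 and 10 had a higher one.

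Both comparisons called 62 sites higher, 77.5% of the first list and 73.8% of the second, and 38 lower, 84.4% and 86.4%. No site was called in opposite directions. The overlap was counted for these 300 sites only. Counts called in both comparisons, here and below, therefore cannot be set against the rest of 18S or RDN37. Under each of the 4 scalings and in both comparisons 44 sites were higher (30 A and 14 C) and 9 were lower (7 A and 2 C). The factor over 18S alone set the 44, and the setting with no factor set the 9. With no factor all 62 higher sites were kept, and with the 18S factor all 38 lower ones, so the 4 scalings are not separate checks. The medians of the 44 were 2.83% in WT, 2.83% in mL, 0.283% in BY4741 and 0.477% in the deletion strain. Those of the 9 were 1.65%, 2.16%, 5.77% and 6.21%.

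**Figure D3:**
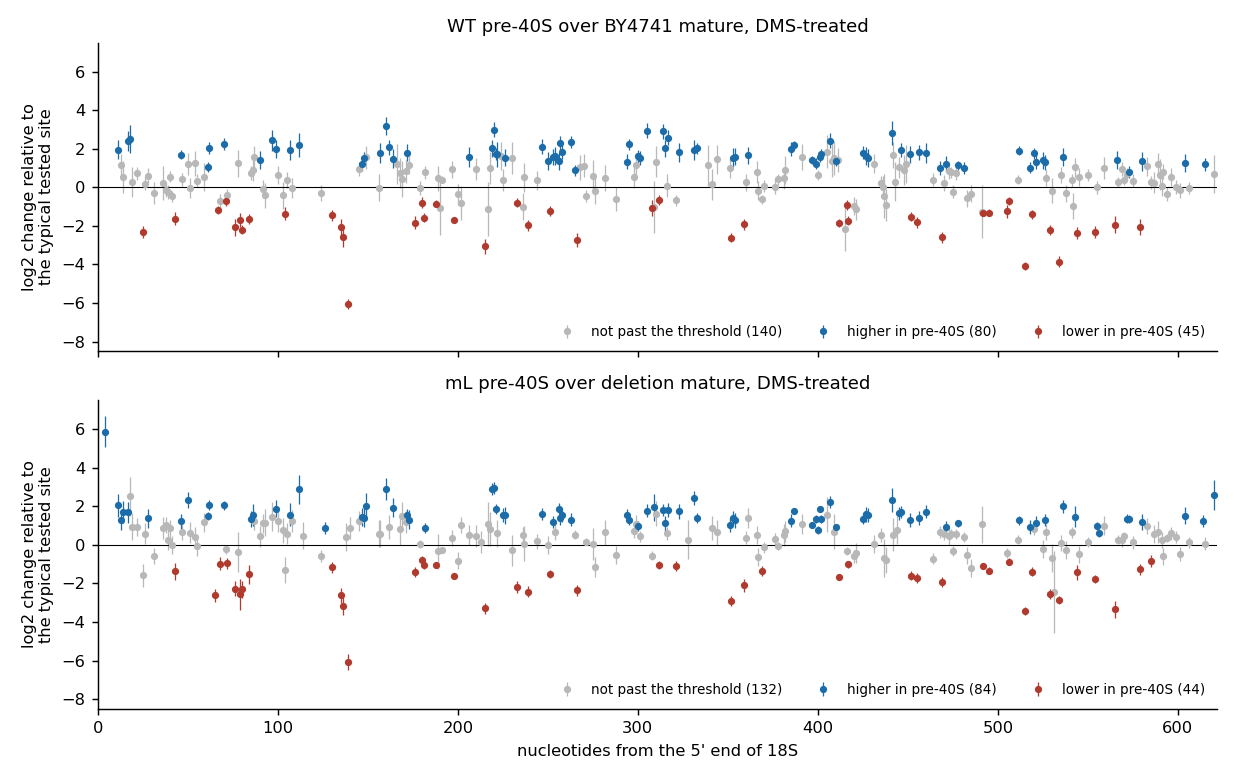
Log2 change of the mutation rate with DMS, pre-40S over mature, after the library factor, at each tested A and C against the position in 18S (nt), for WT against BY4741 above and mL against the deletion strain below. Points are edgeR estimates, bars are SE, and colours mark sites called higher (80 and 84) or lower (45 and 44); C139 lies near -6 in both.

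The 9 sites lower under every scaling were C139, A515, A534, A352, A80, A215, A266, C469 and A529. All but A80 are also among the 10 largest falls of a comparison. Those lists, and the lists of rises, took only sites whose groups did not overlap after the factor. Separation of the groups at listed sites is therefore partly a condition of their choice. C139 had 1.36%, 1.40% and 0.588% in the WT libraries, 0.556%, 0.734% and 1.60% in mL, 32.5%, 29.7% and 33.1% in BY4741 and 33.5%, 37.5% and 18.3% in the deletion strain. Every mature library lay more than 10-fold above every pre-40S library. After the factor its log2 change was -6.06 (SE 0.27, edgeR adjusted p = 3.28e-15) and -6.07 (SE 0.39, adjusted p = 2.51e-09).

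A515 had 2.40%, 2.31% and 2.66% in WT, 1.57%, 4.89% and 3.55% in mL, 15.6%, 14.5% and 19.0% in BY4741 and 17.1%, 22.0% and 17.0% in the deletion strain. A534, 19 nt further on, had 1.48%, 1.22% and 2.25%, then 2.04%, 2.42% and 3.59%, then 7.65%, 9.87% and 9.25%, then 8.72%, 10.5% and 7.74% in the same order. Neither site had a pre-40S library within the mature range. The log2 changes were -4.07 and -3.43 for A515 and -3.87 and -2.85 for A534, with the WT comparison first here and in what follows.

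A352 had 3.51%, 3.81% and 6.0% in WT, 2.40%, 2.50% and 5.42% in mL, 10.7%, 8.97% and 10.9% in BY4741 and 9.71%, 13.1% and 11.8% in the deletion strain, with no overlap between pre-40S and mature libraries (log2 changes -2.62 and -2.90). The next base, A353, was called the other way, with group means of 2.49% in WT and 2.84% in mL against 0.305% in BY4741 and 0.518% in the deletion strain (1.54 and 1.40), though not with the factor taken over 18S in the WT comparison. C354 after it was higher under every scaling (1.60 and 1.28).

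A80, in the U14 domain A region, had 2.44%, 3.76% and 3.31% in WT, 1.59%, 3.43% and 2.47% in mL, 5.58%, 4.92% and 6.81% in BY4741 and 6.85%, 8.38% and 3.40% in the deletion strain. Deletion replicate 3 lay within the mL range, and the WT and BY4741 libraries did not overlap. The log2 changes were -2.19 and -2.30. A215 (-3.07 and -3.29), A266 (-2.73 and -2.36), C469 (-2.59 and -1.90) and A529 (-2.20 and -2.54) had no pre-40S library within the range of the mature strain it was compared with.

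The other sites among the 10 largest falls of a comparison depended on more. C136 was lower by -2.59 and -3.14, but with no factor the first value was -1.26 and was not called. A544 (-2.39 and -1.42) and A135 (-2.08 and -2.62) were called in both. C25 was called in the first (-2.32) and not in the second (-1.59, adjusted p = 0.0579), and A65 was among the falls of the second (-2.60). C79 (-1.69 and -2.56) was not called in the second comparison without any 1 of the mL libraries (-2.53, -3.00 and -2.32 without replicates 1, 2 and 3).

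Among the higher sites C160 changed most in the WT comparison. It had 3.15%, 2.93% and 3.04% in WT, 2.13%, 2.37% and 1.35% in mL, 0.0975%, 0.217% and 0.103% in BY4741 and 0.139%, 0.185% and 0.0469% in the deletion strain. Every pre-40S library lay above every mature one, which the choice of listed sites required within each comparison. The log2 changes were 3.17 (adjusted p = 4.64e-06) and 2.88 (adjusted p = 0.000743).

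A220, in an A-rich stretch, had 1.78%, 4.59% and 2.81% in WT, 2.72%, 5.28% and 5.78% in mL, 0.121%, 0.133% and 0.229% in BY4741 and 0.301%, 0.286% and 0.226% in the deletion strain (2.98 and 2.97). C314 had 3.83%, 3.38% and 2.87%, then 2.78%, 2.51% and 2.30%, then 0.151%, 0.204% and 0.176%, then 0.388%, 0.348% and 0.236% in the same order (2.90 and 1.81). At both sites the pre-40S and mature libraries stood clear of each other, which was a condition for listing A220 in both comparisons and C314 in the first. Shortly before A220 lies A215, one of the 9 lower sites.

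Further rises among the 10 largest of both comparisons were A407 (2.42 and 2.23) and A441 (2.82 and 2.31, the second not called without mL replicate 1, at 2.00). The first comparison added C305 (2.94), C317 (2.58), C18 (2.50), C97 (2.43) and C17 (2.39). C18 was not called without WT replicate 1 (1.80) and C97 not without WT replicate 2 (1.98). The second comparison added A219 (2.89), A112 (2.87), A331 (2.42), C50 (2.34), A62 (2.08) and C4 (5.86). A112 was not called without mL replicate 1 (2.27) or replicate 2 (3.01). C4, at the 5′ end, had 2.11%, 2.40% and 2.12% in mL against 0.0428%, 0.0274% and 0.00265% in the deletion strain, and was not tested with WT.

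**Figure D4:**
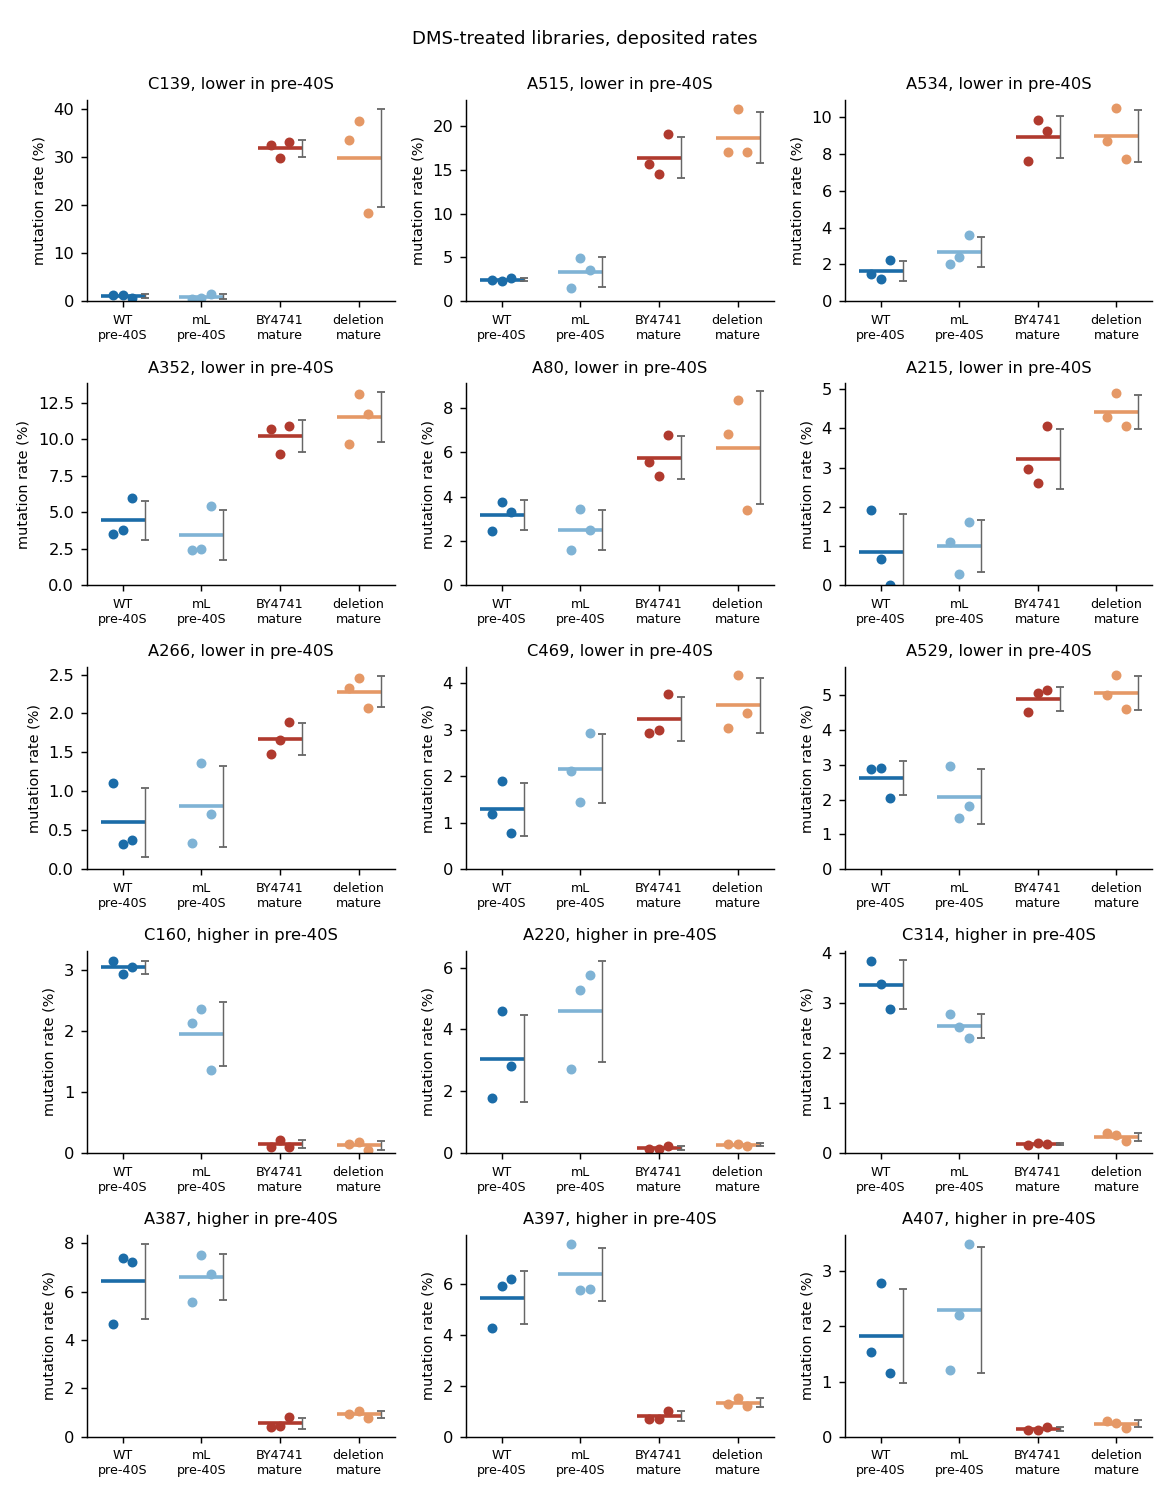
Mutation rate with DMS (percent, as deposited) in each treated library at the 9 sites lower in pre-40S under every scaling and at 6 of the 44 higher ones. Points are libraries, horizontal lines are means and bars are SD (n = 3); at C139 the mature libraries lie between 18.3% and 37.5% and the pre-40S libraries between 0.556% and 1.60%, and at C160 the order is the opposite.

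Sites that are high in pre-40S particles did not all differ after scaling. C191 had 5.99%, 9.24% and 9.20% in WT, 5.72%, 6.98% and 7.55% in mL, 2.38%, 1.85% and 3.08% in BY4741 and 3.33%, 4.64% and 3.35% in the deletion strain. Its deposited rates did not overlap, but its log2 change after the factor was 0.38 (adjusted p = 0.128) and -0.27 (adjusted p = 0.241). A61, A387, A46 and A397 were called higher in both comparisons, by 1.07 and 1.49, 2.19 and 1.77, 1.69 and 1.22, and 1.41 and 1.06. Of 147 pairs of adjacent sites, 14 were called in the same direction in both comparisons (11 pairs higher, 3 lower) and 5 in opposite directions, among them A352 and A353.

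Along the domain, the ratio of the mean rate in pre-40S to that in mature ribosomes, as deposited, varied between windows of 62 nt. It was 3.67 (WT over BY4741) and 2.59 (mL over the deletion strain) in n249 to n310, 3.49 and 2.79 in n559 to n620, 3.30 and 2.70 in n373 to n434 and 3.11 and 3.40 in n1 to n62. It was lowest in n125 to n186, which holds C139, at 0.921 and 0.874, and in n497 to n558, which holds A515 and A534, at 1.13 and 1.09. The other 4 windows lay between 1.35 and 2.02. The deletion mean of n125 to n186 includes C131, with 14.7% in replicate 3. The median site was higher in pre-40S even in the 2 windows with the lowest ratios of means. In n125 to n186 the medians were 1.53% in WT, 1.56% in mL, 0.255% in BY4741 and 0.326% in the deletion strain. In n497 to n558 they were 1.99%, 2.52%, 0.503% and 0.723%.

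**Figure D5:**
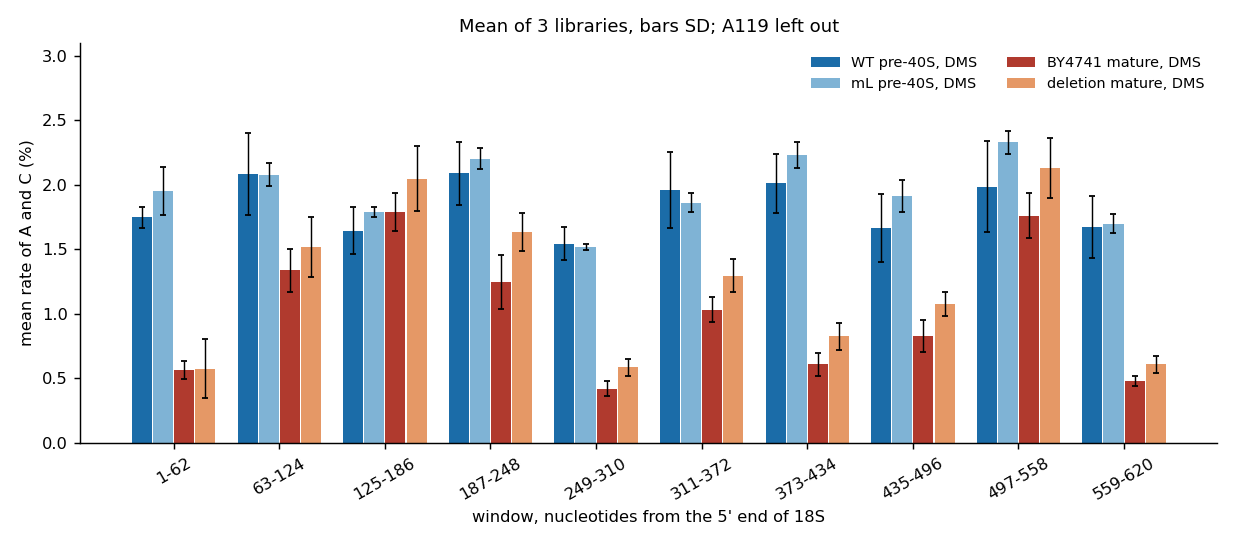
Mean mutation rate with DMS (percent) of the A and C, without A119, in 10 consecutive windows of 62 nt along n1 to n620, by treated group. Bars are means of 3 libraries and error bars are SD; the pre-40S means exceed those of the mature strain they were compared with in 9 windows, and n125 to n186 with C139 is the exception.

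The stretches with known pairing partners or functions were described in the same way. At the 5′ end, n1 to n25, the mean of its 10 sites was 1.31% ± 0.237 (SD, n = 3) in WT, 1.58% ± 0.197 in mL, 0.516% ± 0.0417 in BY4741 and 0.488% ± 0.220 in the deletion strain. A11 and C17 were called higher in both comparisons and no site lower in both. In the U14 domain A region, n80 to n100, the means of 11 sites were 1.56%, 1.79%, 1.00% and 1.10%, with 1 site higher and 2 lower in both.

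In the U14 domain B region, n400 to n430, the means of 20 sites were 1.84%, 2.20%, 0.744% and 0.967%. There 7 sites were higher in both comparisons and 2 were lower, A412 and A417, on either side of C414. A412 had 2.63%, 3.93% and 6.67% in WT, 4.08%, 5.49% and 5.07% in mL, 5.19%, 5.36% and 6.73% in BY4741 and 6.92%, 8.73% and 6.45% in the deletion strain, so the deposited rates of WT and BY4741 overlapped. Its log2 change after the factor was -1.84 and -1.66, and with no factor -0.48, not called, in the WT comparison. In helix 18, n550 to n590, the means of 21 sites were 1.40%, 1.60%, 0.505% and 0.635%. C573 and A580 were higher in both and C554, C565 and A579 lower in both, none of them under every scaling.

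Yeast 18S carries a methyl group on the ribose of 7 of these sites, A28, A100, C414, A420, A436, A541 and A619. A ribose methyl leaves the base-pairing face free. In BY4741 A541 rose from 0.0760% without DMS to 0.825% with it, A420 from 0.178% to 0.510%, A28 from 0.161% to 0.460% and A100 from 0.232% to 0.404%. C414, the target of U14, went from 0.0844% to 0.140% (adjusted p = 0.0469). A619 had 0.682% without and 0.588% with DMS (log2 change -0.21, adjusted p = 0.514), and 0.585% and 0.593% in the deletion strain (adjusted p = 0.959). A436 was not called in BY4741 (0.263% and 0.332%, adjusted p = 0.306) and was called in the deletion strain (adjusted p = 0.0024), and A100 was not called in the deletion strain (adjusted p = 0.627). The difference between the strains was not called at any of these sites by the interaction test given below.

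The comparison of mL with WT asked whether the Rrp5 form changed how the pre-40S particle was reached by DMS. No site of 158 tested was called with DMS by edgeR, where 0.267% of all tested A and C were called. The smallest adjusted p was 0.252 and 14 sites had an unadjusted p under 0.05, and DESeq2 and limma also called 0 (4 and 11 unadjusted). The median size of the log2 change was 0.269 and the median SE 0.411, and changes ran from -1.28 to 1.23. The 6 sites that changed by more than 1 log2 were not called either. Which size of change could be detected at this depth was not tested, so the absence of calls does not show that the particles were alike.

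The 5 sites with the smallest p, chosen after their values were seen, were A46 (-0.91), C263 (-1.03), C233 (-1.27), A162 (-1.28) and A544 (1.23). A46 had 3.03%, 2.87% and 3.91% with mL and 5.90%, 4.38% and 6.20% with WT, without overlap (95% interval of the log2 change -1.51 to -0.31). A544 had 3.23%, 4.18% and 3.91% with mL and 1.53%, 1.84% and 0.472% with WT, also without overlap. Neither passed the adjustment. After the factor the groups did not overlap at 20 of the 158 tested sites (12.7%), against 12.2% of all tested A and C, so separation at sites picked by p carries little weight.

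Without DMS 1 of 55 tested sites was called between mL and WT, C114 (-4.41, adjusted p = 1.86e-07), where 2.82% of all tested sites were called. Its WT rates were 49.5% in replicate 2 and 0% and 0.275% in the others. Without that library no site was called (11 tested), and DESeq2 and limma called none.

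The deletion of snr31 and snr54 was compared with BY4741 in the same way. With DMS no site of 246 tested was called by edgeR, and 0% of all tested A and C were. The smallest adjusted p was 0.111, with 34 sites at an unadjusted p under 0.05. DESeq2 called 2 sites, A585 and A61, and limma 0 (41 unadjusted). The median SE was 0.186 log2. The deposited rates were higher overall in the deletion strain, with library factors 0.4 log2 apart, and with no factor 64 sites were called.

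Chosen again after their values were seen, the 5 sites with the smallest p were A585 (0.68), A61 (-0.76), A421 (-0.64), A397 (0.37) and A529 (-0.36). A585, in helix 18, had 0.770%, 1.04% and 0.778% in the deletion strain and 0.351%, 0.391% and 0.486% in BY4741, without overlap. After the factor the strains did not overlap at 50 of 246 tested sites (20.3%), against 21.5% of all tested A and C. Without DMS 0 of 291 tested sites were called by edgeR (24 at an unadjusted p under 0.05), and 0% of all tested sites were.

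Last, an interaction term tested whether the effect of DMS itself differed between the strains of an experiment, in the 12 libraries of each. These fits had no library factor, so a difference in treated rate common to all sites was not removed. Between the treated mature strains the factors were 0.4 log2 apart, with the deletion strain higher. In the pre-40S particles 10 of 208 sites were called, where 1.29% of all tested A and C were, and without WT untreated replicate 2, the library that stood apart at A119, 0 were called (16 at an unadjusted p under 0.05). Without mL untreated replicates 2 and 3 in turn 5 and 6 were called. In the mature ribosomes 0 of 299 sites were called by edgeR (57 at an unadjusted p under 0.05), where 0.0405% of all tested A and C were. Without BY4741 untreated replicate 1 13 were called, and without deletion untreated replicate 3 1 was called.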

How the data were processed

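DMS-MaPseq libraries were made with TGIRT-III reverse transcriptase and read as single-end 100-bp reads, per the labels' protocols. Each deposited file gives, per RDN37 nucleotide, the count of mutated reads, the effective depth as a count, and, as a fraction, the mutation rate that the authors computed from them. Bowtie2 is named in the submitters' processing notes. No mutation counter, filter or build is named there. Rates are printed in percent.

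Tests of the mutation counts used the quasi-likelihood method of edgeR 4.0.16 in R 4.3.3, with Benjamini-Hochberg adjustment over all tested RDN37 sites, with log depth as offset plus, except for DMS effects and interactions, a library factor. The factor is the median over tested sites with at least 1 mutation in every library. This restriction was chosen after a test on simulated data. Comparisons of treated libraries took A and C with at least 30 mutations and a treated rate at least 2 times the untreated one. Molecular identifiers are not mentioned, so error estimates cover reads, not molecules. At most 0.333% of the sites had identical counts in 2 libraries, so each counted as 1 sample.

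Named sites are the 10 highest of treated BY4741 and WT, the 10 largest called rises and falls per particle comparison (a mean of at least 1%, groups not overlapping), all called sites or the 5 of smallest p per strain comparison, and the ribose-methylated sites. A few neighbours and sites that stood apart were added after their values were seen. Members, lists and tests were chosen with earlier results of these data known. Alternatives were DESeq2 1.42.0, limma 3.58.1, other factors, minima and depths, a replicate block, and leaving out each library. Sequences were read from the deposited files.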

Additional observations from a re-analysis of the deposited data

Results flagged for a closer look

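In the pre-40S particles the effect of DMS differed between mL and WT at 10 sites by the edgeR interaction test. The difference, mL minus WT on the log2 scale, was -4.43 at C25, -2.79 at A46, -2.18 at A61, -4.78 at C97 and -3.84 at C160. It was 4.15 at A65, 4.16 at C114, 4.32 at A126, 4.65 at A352 and 4.40 at A544. Adjusted p-values ran from 0.000251 (C114) to 0.041 (A352). At A65, C114, A126 and A352 untreated WT replicate 2 had the highest rate of its group, at 5.48%, 49.5%, 7.91% and 2.44%. Without that library none of the 10 was called. C25 (-2.68), A46 (-1.86), A61 (-1.17), A65 (2.21) and C160 (-2.26) kept their direction, and C114 (-2.11), A126 (-2.47), A352 (-0.30) and A544 (-0.10) turned, while C97 was not tested. The part of that library in the result was not tested beyond leaving it out.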

How the results depend on the processing

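Of 980 values of 76 single-site results under the alternatives, 919 kept their direction and side of the threshold, 51 were no longer past it, 4 came to pass it, 1 moved and 5 reversed. The DMS effect at C114 in BY4741 ran from -3.83 to 1.13 with 1 library left out. The other 4 reversals were interactions without WT untreated replicate 2: C114 -2.11, A126 -2.47, A352 -0.30 and A544 -0.10 (highest with another library left out: 4.90, 4.98, 5.33 and 6.10). With no mutation minimum the DMS effect was called at 212 of 296 sites with WT and 212 of 299 with mL (main 101 of 115 and 99 of 106). With a pre-40S depth minimum of 100 it was called at 47 of 50 with WT. Between the mature strains with DMS, DESeq2 called 2 and no library factor gave 64. Between untreated mL and WT, DESeq2 called 0, limma 0, no minimum 2 and a depth minimum of 100 4. Without a factor the particle comparisons gave 170 higher and 12 lower, and 195 calls (176 higher, 19 lower). Leaving out 1 library gave 57 to 101 and 30 to 94 calls for the DMS effect with WT and mL, 0 to 5 between untreated mL and WT, 54 to 84 higher with mL against the deletion strain, 0 to 15 for the pre-40S interaction and 0 to 13 for the mature one. The DMS-effect counts fell with the number of sites tested. For the other changes the cause was not tested. Same-numbered libraries correlated between -0.322 and 0.044 over 24 pairs. These values show no pairing by number but cannot exclude it, and the main tests treated the libraries as unpaired. The replicate block gave 0 calls between untreated mL and WT and 8 for the pre-40S interaction, and moved no other count by over 1.5 times. The interaction alternatives, the pseudocount factor and the libraries singled out were chosen after seeing the data. Pre-40S depth limits what single sites can show there.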
